A study of Mus musculus with 8 samples.

Results

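The genes described here are 10 enzymes and carriers of antioxidant defence: the peroxiredoxins Prdx1, Prdx2 and Prdx4, thioredoxin (Txn1) and its reductase (Txnrd1), glutathione peroxidase (Gpx1), the superoxide dismutases Sod1 and Sod2, catalase (Cat) and the glutathione transferase Gsta2. They were measured in mouse germinal centre and resting B cells. Members were taken by gene symbol, as all probe sets annotated to one of these names, which gave 14 of the 12488 probe sets on the array. Of the 14, 12 were above a floor of 81 intensity units on at least 2 arrays and entered the tests. The other 2 belong to Prdx2 and are described with it. Both probe sets of Prdx1 are annotated jointly to Prdx1 and to Gm21399, a pseudogene in RefSeq, and are called the Prdx1/Gm21399 probe sets, since their signal cannot be assigned to Prdx1 alone.

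RNA came from B cells of QMxB6 F1 mice. QM (quasi-monoclonal) mice carry a pre-rearranged heavy chain specific for the hapten NP, so that most of their B cells can respond to it. Each array held sorted cells pooled from 4 to 10 mice, 2 arrays for each of 4 groups, and the replicates are biological according to the labels. Germinal centre B cells were sorted as GL7+ B220+ in 3 groups. The T-independent group (TI day 4) came from mice given 30 µg of NP-Ficoll intraperitoneally and was taken on day 4. The group called TD day 10 came from unprimed mice, 10 days after 50 µg of alum-precipitated NP-CGG with heat-killed B. pertussis. The group called TD day 4 came from mice primed with 50 µg of alum-precipitated chicken gamma-globulin plus heat-killed B. pertussis, which received 50 µg of soluble NP-CGG 5 weeks later and were taken on day 4. Resting B cells were GL7- B220+ cells of unimmunised mice. TI and TD day 4 share the day but differ in antigen, priming and adjuvant history, and the groups against resting cells also differ in the GL7 gate.

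Cells that divide and respire quickly produce superoxide and hydrogen peroxide. Superoxide dismutases turn superoxide into hydrogen peroxide, which catalase, glutathione peroxidases and peroxiredoxins then remove. Peroxiredoxins are oxidised in doing so and are restored by thioredoxin, which thioredoxin reductase recharges with electrons from NADPH, whereas Prdx4 works inside the endoplasmic reticulum, where peroxide is a by-product of disulphide bond formation in secreted proteins. Glutathione transferases join glutathione to reactive compounds.

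The promoter windows of 5 members are shown, because Txn1, the Prdx1/Gm21399 probe sets and Sod1 rose together in germinal centre cells while Prdx4 and Gsta2 were high in TI cells. Each window runs from 250 bases before to 50 bases after a start site in RefSeq (GRCm38.p6), read 5′ to 3′ on the gene's strand. Capitals mark matches to 4 motifs searched on both strands: the antioxidant response element core TGACNNNGC, the AP-1 site TGACTCA, the endoplasmic reticulum stress response element (ERSE) and the unfolded protein response element core TGACGTGG.
Txn1, chr4:57956362-57956661, minus strand: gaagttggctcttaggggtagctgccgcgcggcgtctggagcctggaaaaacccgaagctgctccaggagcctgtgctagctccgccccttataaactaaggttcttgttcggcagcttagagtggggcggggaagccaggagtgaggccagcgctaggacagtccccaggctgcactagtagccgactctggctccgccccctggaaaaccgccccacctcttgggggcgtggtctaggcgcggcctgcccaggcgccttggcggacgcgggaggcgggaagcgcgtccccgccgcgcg
Prdx1, chr4:116685349-116685648, plus strand: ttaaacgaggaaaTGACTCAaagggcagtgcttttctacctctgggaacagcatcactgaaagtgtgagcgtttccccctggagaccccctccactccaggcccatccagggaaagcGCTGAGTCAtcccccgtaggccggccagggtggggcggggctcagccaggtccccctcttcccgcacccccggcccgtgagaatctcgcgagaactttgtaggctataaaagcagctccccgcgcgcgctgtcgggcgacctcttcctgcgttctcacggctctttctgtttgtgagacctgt
Sod1, chr16:90220512-90220811, plus strand: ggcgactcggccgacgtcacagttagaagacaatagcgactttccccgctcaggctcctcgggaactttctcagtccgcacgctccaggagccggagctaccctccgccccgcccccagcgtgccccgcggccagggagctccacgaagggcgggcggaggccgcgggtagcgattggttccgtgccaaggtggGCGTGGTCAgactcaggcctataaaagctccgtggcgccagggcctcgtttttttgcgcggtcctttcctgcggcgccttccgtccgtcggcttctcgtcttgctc
Prdx4, chrX:155338411-155338710, minus strand: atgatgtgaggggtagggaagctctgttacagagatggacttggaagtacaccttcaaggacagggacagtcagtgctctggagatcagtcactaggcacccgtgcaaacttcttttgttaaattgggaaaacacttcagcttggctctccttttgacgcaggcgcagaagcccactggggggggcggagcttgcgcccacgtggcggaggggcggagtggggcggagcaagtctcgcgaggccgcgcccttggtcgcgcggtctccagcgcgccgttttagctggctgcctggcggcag
Gsta2, chr9:78347096-78347395, minus strand: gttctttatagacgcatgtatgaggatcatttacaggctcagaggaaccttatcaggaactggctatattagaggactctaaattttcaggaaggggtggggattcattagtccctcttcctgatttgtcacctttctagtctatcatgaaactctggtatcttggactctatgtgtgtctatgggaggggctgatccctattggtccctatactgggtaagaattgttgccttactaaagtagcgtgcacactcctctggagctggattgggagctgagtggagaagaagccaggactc

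All 10 genes had at least 1 window, 12 in all. The antioxidant response element core was found for 3 genes, and in 12.4% of all 32851 windows of that length. These matches lie on the minus strand, 133 bases before the start in Prdx1, 92 bases before 1 of the Txnrd1 starts and 56 bases before the start in Sod1. The AP-1 site occurred in the window of 1 gene, Prdx1, at 237 and 131 bases before the start, and in 5.2% of all windows; the nearer of the Prdx1 sites overlaps its antioxidant response element match. The windows of the members held 0 matches to both stress elements, which occurred in 0.119% and 0.676% of all windows. These are letter matches in short windows, and factor binding was not measured here.

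The arrays had median intensities between 77 and 89. B cell and germinal centre markers were present, but not every germinal centre marker rose. The summed intensity of 7 B cell markers was 25941 to 25994 on TI day 4 arrays and 22583 to 23891 on TD day 10 arrays. It was 24875 to 26404 on TD day 4 arrays and 30405 to 34621 on resting arrays. That of 7 germinal centre markers was 3906 to 3922, 5714 to 5788, 4917 to 5541 and 2004 to 2434 in the same group order. Against resting cells, TI day 4 cells had 4 of these 7 called higher, TD day 10 cells 6 and TD day 4 cells 4. Gcsam, at 156 and 131 in TI day 4 cells, was level with resting cells (154 and 101, adjusted p = 0.77 in limma). It was called lower there than in both T-dependent groups. The folds were 4.94 for TD day 4 (adjusted p = 0.028) and 4.34 for TD day 10 (0.023). Mef2b and S1pr2 were also not called in TI day 4 cells. Markers of other cells were present at levels that differ between the groups, and are given beside the results they move with. Of 7 T cell markers, Cd3e, Cd3d, Cd8a, Thy1 and Cd5 were at or below the floor on all arrays, Cd3g reached 92 on a TI day 4 array and 109 on a resting array, and Cd4 read 292 to 710 over the 8 arrays. In pooled, sorted cells, a change in the share of a cell type cannot be told apart from a change in RNA per cell.

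Germinal centre B cells, as the mean of their 3 groups, differed from resting cells in 5 of the 12 member probe sets, all of them higher: Txn1, both Prdx1/Gm21399 probe sets, Prdx4 and Sod1. Of all 7253 probe sets tested, 13.2% were called in this comparison at an adjusted p under 0.05 in limma, 7.73% higher and 5.5% lower. The member probe sets had a median log2 difference of 0.6, against 0.004 over all tested probe sets. In 5 of the 12 the germinal centre and resting arrays did not overlap, against 24.9% of all probe sets. All comparisons with resting cells share the same 2 resting arrays.

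Txn1, the small protein that passes electrons from thioredoxin reductase to peroxiredoxins, ribonucleotide reductase and other targets, read 4026 and 4398 on the TI day 4 arrays, 4451 and 4348 on the TD day 10 arrays and 5050 and 5116 on the TD day 4 arrays, against 685 and 891 on the resting arrays. All 6 germinal centre arrays were far above both resting arrays. The difference was 2.54 on the log2 scale (SE 0.15, 95% interval 2.19 to 2.90), or 5.82-fold, with an adjusted p of 0.00048. Each group was higher than resting cells on its own: TI day 4 5.39-fold (adjusted p = 0.0013), TD day 10 5.63-fold (adjusted p = 0.0015) and TD day 4 6.51-fold (adjusted p = 0.0012). Among the germinal centre groups, TI day 4 lay below TD day 4 without overlap, but the log2 difference of -0.27 had an interval from -0.71 to 0.16 and did not pass the test (adjusted p = 0.61).

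Prdx1 is an abundant cytosolic peroxiredoxin that Txn1 restores. The brighter Prdx1/Gm21399 probe set read 3853 and 3304 in TI day 4 cells, 4928 and 4700 in TD day 10 cells and 4860 and 4208 in TD day 4 cells, against 2272 and 1880 in resting cells. Again no germinal centre array reached down to the resting arrays. The mean germinal centre level was 2.06-fold higher (log2 difference 1.05, SE 0.15, adjusted p = 0.0076). The second probe set read 2780 and 2415 in TI day 4 cells, 3536 and 3827 in TD day 10 cells and 3620 and 3246 in TD day 4 cells, against 1302 and 951 in resting cells, and was 2.87-fold higher (log2 difference 1.52, SE 0.17, adjusted p = 0.0032).

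Both probe sets placed TI day 4 lowest of the 3 germinal centre groups. For the brighter one, the rise over resting cells was 1.73-fold in TI day 4 cells (adjusted p = 0.049), 2.33-fold in TD day 10 cells (adjusted p = 0.011) and 2.19-fold in TD day 4 cells (adjusted p = 0.016). The TI day 4 call of that probe set is lost on leaving out any single array of the 8, and the TD day 10 and TD day 4 calls are lost without either array of their own group. For the second probe set the rises were 2.33-fold (adjusted p = 0.017), 3.31-fold (adjusted p = 0.0055) and 3.08-fold (adjusted p = 0.0077) in the same group order; the first is lost without either TI day 4 array and the last without TD day 4 replicate 1. Adjusted p reached 0.172 and 0.123 for the TI day 4 rises of the brighter and the second probe set over the alternatives. TI day 4 and TD day 10 cells did not overlap in either probe set. The log2 differences between them were -0.43 and -0.51, with adjusted p of 0.3 and 0.28, so neither passed the test.

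Sod1, the cytosolic copper and zinc superoxide dismutase, read 3076 and 3098 in TI day 4 cells, 3584 and 3374 in TD day 10 cells and 3730 and 2559 in TD day 4 cells, against 1966 and 1768 in resting cells. All germinal centre arrays were above both resting arrays, and the TD day 4 replicates were the most spread of the 4 pairs and spanned the other germinal centre groups. The germinal centre mean was 1.72-fold higher (log2 difference 0.79, SE 0.17, interval 0.36 to 1.21, adjusted p = 0.034). By group, the TD day 10 rise of 1.87-fold was called (adjusted p = 0.048), while TI day 4 and TD day 4 cells were each at 1.66-fold with an adjusted p of 0.098. The TD day 10 call held in 6 of 21 alternatives (adjusted p up to 0.2) and was lost without either array of the resting, TD day 10 or TI day 4 group. The mean rise was called in 9 of 19 alternatives and lost without either array of the resting, TD day 10 or TI day 4 group, with adjusted p up to 0.136.

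**Figure D1:**
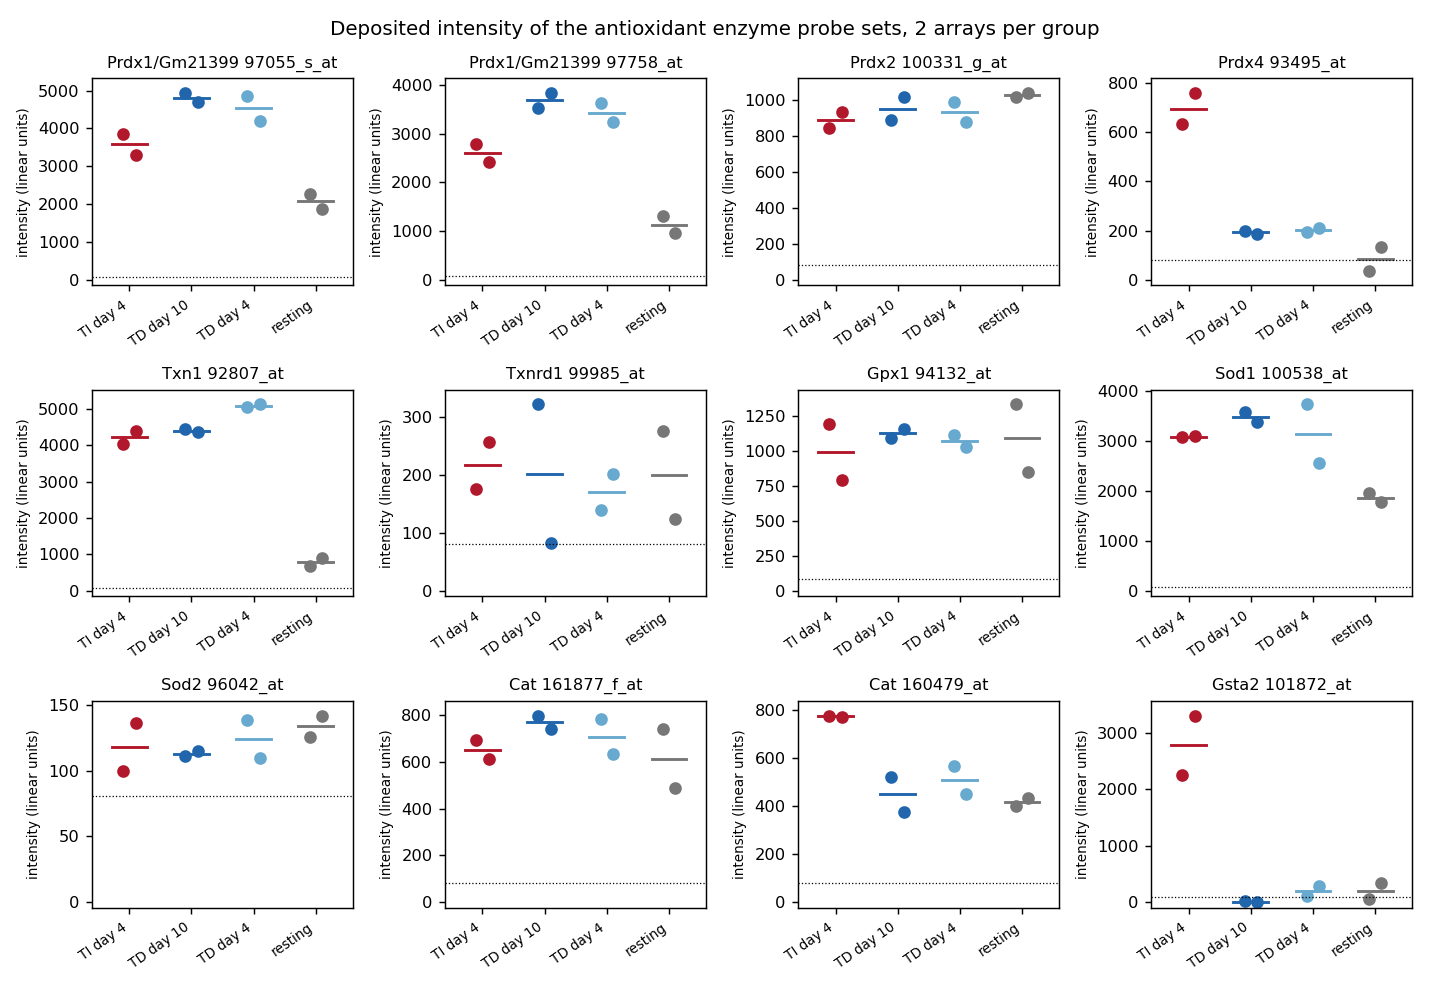
Intensity of the 12 tested member probe sets on each of the 8 arrays (vertical axes, linear units), with TI day 4, TD day 10, TD day 4 and resting arrays from left to right; points are single arrays, horizontal bars group means and the dotted line the floor of 81. Txn1 reads 4026 to 5116 on germinal centre arrays and 685 and 891 on resting arrays, and Gsta2 reads 2244 and 3301 on the TI day 4 arrays and 0 to 333 on the others.

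The cytosolic peroxiredoxin Prdx2 showed no called difference. Its tested probe set read 845 and 936 in TI day 4 cells, 888 and 1018 in TD day 10 cells and 991 and 881 in TD day 4 cells, against 1018 and 1039 in resting cells. Resting arrays were level with the highest germinal centre array, and the log2 difference was -0.15 with an interval from -0.48 to 0.17 (adjusted p = 0.55). Its other 2 probe sets read between -79 and 78 and between -89 and -32 over the 8 arrays and could not be tested. The comparison therefore rests on 1 of 3 Prdx2 probe sets.

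The remaining peroxide and superoxide enzymes showed no called difference between the germinal centre mean and resting cells. Gpx1, the main cytosolic glutathione peroxidase, read 1189 and 793 in TI day 4 cells, 1090 and 1157 in TD day 10 cells and 1112 and 1027 in TD day 4 cells, against 1329 and 848 in resting cells. The resting pair spans nearly every germinal centre value, and the log2 difference was -0.01 (interval -0.58 to 0.56). Sod2, the mitochondrial manganese enzyme, was close to the floor, at 100 and 136 in TI day 4 cells, 111 and 115 in TD day 10 cells and 139 and 110 in TD day 4 cells, against 126 and 142 in resting cells. Its log2 difference was -0.18 (interval -0.61 to 0.24). With every array this close to the floor, the size of an RNA difference cannot be judged from that interval.

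Txnrd1, the cytosolic reductase that recharges Txn1, was measured imprecisely. It read 176 and 256 in TI day 4 cells, 321 and 82 in TD day 10 cells and 140 and 202 in TD day 4 cells, against 276 and 123 in resting cells. Replicates of 1 group were as far apart as the groups, and the log2 difference of -0.04 had an interval from -1.42 to 1.35. A change of the reductase as large as 2-fold in either direction was not detectable at this precision.

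Summed red cell signal was highest in the resting group. The summed intensity of 11 red cell markers was 5588 to 6210 on TI day 4 arrays, 4588 to 4687 on TD day 10 arrays and 4345 to 4408 on TD day 4 arrays, against 26437 to 29840 on resting arrays. Hba-a1 (15550 and 13751) and Hbb-b2 (8744 and 7985) made up most of the resting sum. In the germinal centre mean 4 of the 10 markers tested fell and 0 rose, and 5.5% of all tested probe sets were called lower. The 4 were Hba-a1, Hbb-b2, Car2 and Alas2. Alas2 was above the floor only on the 2 resting arrays (129 and 219), so its direction was fixed. Klf1, Tfrc and Hemgn were not called. In TI day 4 cells alone, 3 fell and 2, Slc4a1 and Gata1, were higher than in resting cells. Gata1 passed the filter only through the TI day 4 arrays (140 and 221), so its p is no support for a rise. Red cells are rich in Prdx2, Cat, Gpx1 and Sod1, and the part of these transcripts in the resting levels was not tested.

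**Figure D2:**
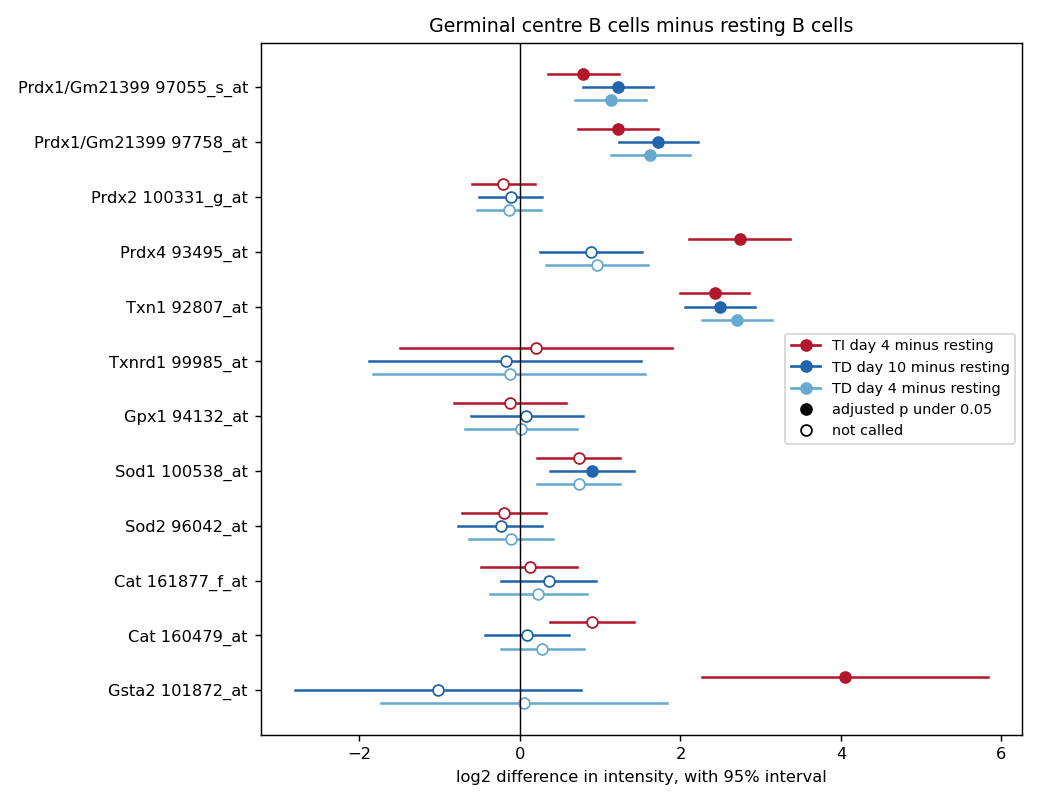
Log2 difference from resting cells of each tested member probe set (horizontal axis), for TI day 4, TD day 10 and TD day 4 cells, with 95% intervals as bars and filled points for an adjusted p under 0.05. Txn1 lies between 2.43 and 2.70 in all 3 groups, Prdx4 and Gsta2 stand to the right in TI day 4 cells, and the interval of Txnrd1 spans 0 widely.

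The T-independent and carrier-primed T-dependent responses, both taken on day 4, differed in 1 of the 12 member probe sets, Prdx4, which was higher in TI day 4 cells. The background was 1.45% of all tested probe sets, 0.731% higher and 0.717% lower. At an unadjusted p under 0.05 there were 3 member probe sets: Prdx4, Gsta2 and the dimmer probe set of Cat. Over all probe sets 1044, or 14.4%, had such a p. The median log2 difference of the members was -0.08, against -0.011 over all probe sets, and in 6 of the 12 the arrays of the groups did not overlap, against 49.4% of all probe sets. Against TD day 10 cells, 2 member probe sets were higher in TI day 4 cells, Prdx4 and Gsta2, with a background of 2.4% (1.2% higher and 1.2% lower). The TI day 4 arrays did not overlap the TD day 10 arrays in 7 of the 12, against 52.8% of all. Both comparisons use the same 2 TI day 4 arrays.

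Prdx4, the peroxiredoxin of the endoplasmic reticulum, which passes oxidising equivalents to protein disulphide isomerases, read 634 and 758 in TI day 4 cells. In TD day 10 cells it read 199 and 185, in TD day 4 cells 194 and 210, and in resting cells 37 and 133. TI day 4 arrays were more than 3 times as bright as any other array, the T-dependent groups lay together, and 1 resting array was under the floor. Prdx4 was 3.43-fold higher in TI day 4 than in TD day 4 cells (log2 difference 1.78, SE 0.26, interval 1.15 to 2.41, adjusted p = 0.035) and 3.61-fold higher than in TD day 10 cells (log2 difference 1.85, interval 1.22 to 2.48, adjusted p = 0.024).

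Relative to resting cells, Prdx4 was at least 6.68-fold higher in TI day 4 cells (adjusted p = 0.0029) and at least 2.88-fold higher in the germinal centre mean (adjusted p = 0.0071). The T-dependent groups had log2 differences from resting cells of 0.89 in TD day 10 cells (adjusted p = 0.092) and 0.96 in TD day 4 cells (adjusted p = 0.078), which did not pass the test. The calls between TI day 4 and either T-dependent group were lost on leaving out any of the 6 germinal centre arrays, and the direction held in each case. Over all alternatives the log2 difference from TD day 4 stayed between 1.36 and 1.91 (adjusted p up to 0.299) and that from TD day 10 between 1.34 and 1.99 (adjusted p up to 0.191).

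Gsta2, an alpha-class glutathione transferase, read 2244 and 3301 in TI day 4 cells, 10 and 0 in TD day 10 cells and 105 and 276 in TD day 4 cells, against 48 and 333 in resting cells. Only the TI day 4 arrays were bright: both TD day 10 arrays and 1 resting array were under the floor. It was at least 33.6-fold higher in TI day 4 than in TD day 10 cells (adjusted p = 0.026) and 16.6-fold higher than in resting cells by geometric means with 1 resting array raised to the floor (adjusted p = 0.022), or 14.6-fold by arithmetic means of the deposited values. The difference from TD day 4 cells, 16.0-fold with a log2 interval of 2.22 to 5.78, did not pass (adjusted p = 0.065). Alpha-class transferases are close in sequence, and signal from relatives of Gsta2 was not tested.

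Leaving out any of the 6 germinal centre arrays ended the Gsta2 call against TD day 10 cells, and leaving out resting replicate 1, either TD day 10 array or either TI day 4 array ended the call against resting cells. The log2 difference from TD day 10 cells stayed between 3.68 and 6.24 over the alternatives (adjusted p up to 0.193), and that from resting cells between 3.03 and 5.07 (adjusted p up to 0.15).

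The 2 probe sets of Cat, the peroxisomal catalase, disagree on TI day 4 cells. The brighter read 692 and 611 in TI day 4 cells, 798 and 739 in TD day 10 cells and 783 and 632 in TD day 4 cells, against 741 and 486 in resting cells. It showed no group apart from the others, with a log2 difference of the germinal centre mean from resting cells of 0.23 (adjusted p = 0.55). The dimmer read 778 and 772 in TI day 4 cells, 521 and 377 in TD day 10 cells and 567 and 452 in TD day 4 cells, against 402 and 432 in resting cells. Here the TI day 4 arrays were the highest of the 8, but the log2 differences of 0.81 from TD day 10 cells (adjusted p = 0.13), 0.61 from TD day 4 cells (adjusted p = 0.27) and 0.90 from resting cells (adjusted p = 0.055) did not pass the test.

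**Figure D3:**
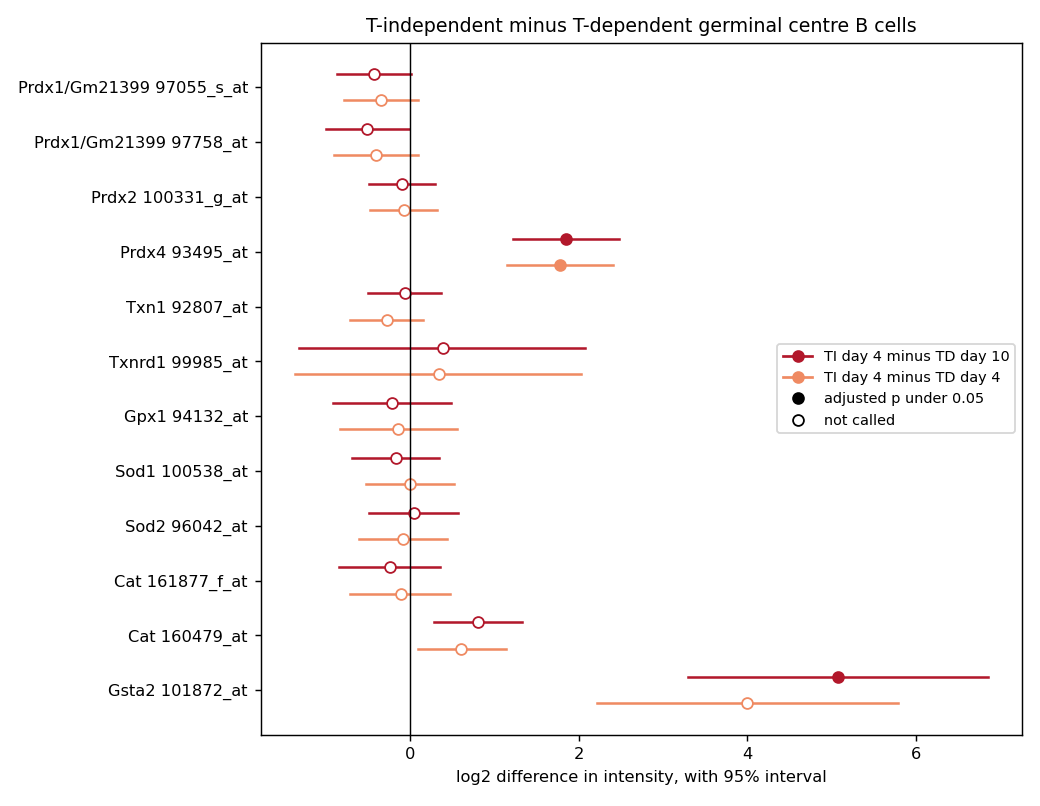
Log2 difference of TI day 4 cells from TD day 10 cells and from TD day 4 cells for each tested member probe set (horizontal axis), with 95% intervals as bars and filled points for an adjusted p under 0.05. Prdx4 lies at 1.85 and 1.78 and Gsta2 at 5.07 and 4.00, while the Prdx1/Gm21399, Txn1 and Sod1 probe sets lie at or below 0.

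Other transcripts were also higher on the TI day 4 arrays. The summed intensity of 5 plasma cell markers was 9726 to 12923 on TI day 4 arrays, 2581 to 3288 on TD day 10 arrays, 3246 to 3932 on TD day 4 arrays and 1919 to 1965 on resting arrays, with Jchain at 7347 and 9356 on the TI day 4 arrays. Irf4 read 125 and 516 in TI day 4 cells, 137 and 228 in TD day 10 cells and 59 and 263 in TD day 4 cells, against 292 and 511 in resting cells, and was called in no comparison. Sdc1 and Prdm1 were too dim to be tested. Jchain was called higher in TI day 4 than in TD day 10 (adjusted p = 0.0098 in limma), TD day 4 (0.021) and resting cells (0.00093). Xbp1 read 2072 and 2951 in TI day 4 cells, 497 and 856 in TD day 10 cells, 810 and 761 in TD day 4 cells and 756 and 548 in resting cells. It was called higher in TI day 4 than in TD day 10 (adjusted p = 0.044) and resting cells (0.018), but not TD day 4 cells (0.075). The summed intensity of 11 macrophage markers was 4959 to 5923, 1373 to 1942, 1969 to 2236 and 3065 to 3295 in the order TI day 4, TD day 10, TD day 4 and resting, with Adgre1, Marco and Mrc1 at or below the floor on all arrays. Of 8 tested, 0 were called between TI day 4 and TD day 4 cells. Against TD day 10 cells 1 was higher and 0 lower, and against resting cells 1 was higher and 2 lower. Of all tested probe sets, 1.2% were called higher against TD day 10 cells, and 5.42% higher and 3.98% lower against resting cells. The higher marker was Apoe in both, at 6.71-fold (adjusted p = 0.038 in limma) and 6.5-fold (adjusted p = 0.017). Apoe made up most of the TI day 4 sum, at 4213 and 3371; without it the sum of the other 10 was 1588 to 1710 in TI day 4 cells, 1002 to 1092 in TD day 10 cells and 829 to 931 in TD day 4 cells, against 2520 to 2631 in resting cells. The red cell marker Slc4a1 read 1700 and 2317 in TI day 4 cells, 252 and 221 in TD day 10 cells and 363 and 419 in TD day 4 cells, against 724 and 707 in resting cells, and was higher in TI day 4 cells than in TD day 10 (adjusted p = 0.004), TD day 4 (adjusted p = 0.0099) and resting cells (adjusted p = 0.0094). The summed intensity of 11 sorting stress genes was 12517 to 16338, 7695 to 8036, 6740 to 11782 and 8436 to 8506 in the order TI day 4, TD day 10, TD day 4 and resting. Of 10 tested, 0 were called between TI day 4 and either T-dependent group. At an unadjusted p under 0.05 there were 4 against each, Fos, Fosb, Hspa1a and Hspa1b, all higher in TI day 4 cells. Over all tested probe sets that share was 14.4% against TD day 4 and 17.2% against TD day 10 cells. Fos, Hspa1a and Hspa1b, 3 of the 10, were called higher in TI day 4 than in resting cells, against 5.42% of all.

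The ratio of 3′ to 5′ Gapdh control signal, a measure of RNA or labelling quality, was 1.24 and 1.68 on TI day 4 arrays, 0.836 and 0.896 on TD day 10 arrays, 0.981 and 0.954 on TD day 4 arrays and 0.867 and 1.59 on resting arrays. With that ratio as a covariate, chosen after seeing the data, the log2 difference of Prdx4 from TD day 4 cells was 1.36 (adjusted p = 0.137) and that from TD day 10 cells 1.34 (adjusted p = 0.162). The part of plasma cell, macrophage, red cell or stress transcripts in the TI day 4 levels of Prdx4 and Gsta2 was not tested.

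No member difference was called between the T-dependent groups: 0 of the 12 probe sets were called between TD day 10 and TD day 4 cells, 0 had an unadjusted p under 0.05, and the background was 0% in limma, with 373 probe sets of the array at an unadjusted p under 0.05. Intervals were narrowest for Prdx2 (-0.37 to 0.42) and Txn1 (-0.64 to 0.23) and widest for Gsta2 (-2.85 to 0.71). In 2 of the 12 the arrays did not overlap, against 40.1% of all probe sets.

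Against resting cells alone, TI day 4 cells had 5 member probe sets higher and 0 lower (background 9.4%, of which 5.42% higher and 3.98% lower), TD day 10 cells 4 higher and 0 lower (background 10.9%, of which 6.45% higher and 4.44% lower) and TD day 4 cells 3 higher and 0 lower (background 9.42%, of which 5.83% higher and 3.58% lower). Txn1 and both Prdx1/Gm21399 probe sets were called in all 3 groups. Prdx4 and Gsta2 completed the TI day 4 count and Sod1 that of TD day 10 cells. The median log2 differences of the members were 0.76, 0.22 and 0.26 in the same group order, against -0.025, 0.045 and -0.023 over all tested probe sets. The arrays did not overlap those of resting cells in 8 of the 12 for TI day 4 cells (48.4% of all probe sets), 7 for TD day 10 cells (49.7%) and 7 for TD day 4 cells (49.8%).

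Over the 8 arrays, the members formed patterns that can be described by Pearson's r on log2 values, with group differences as the common source of the variation. The brighter Prdx1/Gm21399 probe set followed Txn1 (r = 0.91) and Sod1 (r = 0.93), and Txn1 followed Sod1 (r = 0.88). Prdx4 followed Gsta2 (r = 0.86) and the dimmer Cat probe set (r = 0.89). Among 3957 other probe sets above the floor on all arrays, those most like Txn1 were Amz2 (r = 0.996), Dstn (r = 0.995) and H2az1 (r = 0.993), and those most like Sod1 were Cdca5 (r = 0.984), Tuba1a (r = 0.981) and Cdkn2aipnl (r = 0.972). The probe sets most like Prdx1/Gm21399 were Dbi (r = 0.994), Sypl (r = 0.992) and Eif1ax (r = 0.99). Those most like Prdx4 were Rpn1 (r = 0.978), Gsn (r = 0.97) and Jchain (r = 0.966), and those most like Gsta2 were Phf7 (r = 0.972), H13 (r = 0.966) and Mbtps1 (r = 0.965).

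Of the other thioredoxin and peroxiredoxin genes, 8 of 12 were on the array and 6 were tested. In the germinal centre mean 1 was higher and 1 lower than in resting cells, with a median log2 difference of 0.1. Of all tested probe sets, 7.73% were called higher and 5.5% lower. Txnl1, a thioredoxin-like protein of the proteasome, read 303 and 360 in TI day 4 cells, 303 and 278 in TD day 10 cells and 300 and 251 in TD day 4 cells, against 112 and 172 in resting cells, and was 2.14-fold higher (adjusted p = 0.019). Txnip, the protein that binds thioredoxin and blocks it, read 764 and 681 in TI day 4 cells, 331 and 452 in TD day 10 cells and 400 and 744 in TD day 4 cells, against 1173 and 1492 in resting cells. It was 2.48-fold lower (log2 difference -1.31, adjusted p = 0.029), opposite in direction to Txn1, and every germinal centre array was below both resting arrays. The Txnip call was lost without either array of the resting, TD day 10 or TI day 4 group (adjusted p up to 0.153), and the Txnl1 call without resting replicate 1, TD day 4 replicate 1, either TD day 10 array or TI day 4 replicate 2 (adjusted p up to 0.0658). Msrb1, which repairs oxidised methionine, was called higher in TD day 4 than in resting cells (at least 1.65-fold, adjusted p = 0.04), at 124 and 144 in TD day 4 cells against -244 and -613 in resting cells. The only other value above the floor was 88 on a TD day 10 array, so Msrb1 passed the filter only through the TD day 4 arrays. Its direction was fixed, and its p is no support for a rise.

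Of 31 glutathione genes, 27 were on the array and 15 were tested. Gclc, the catalytic subunit of the rate-limiting enzyme of glutathione synthesis, was the 1 gene called between the germinal centre groups. It read 184 and 201 in TI day 4 cells, 21 and 35 in TD day 10 cells and 16 and 63 in TD day 4 cells, against 35 and 100 in resting cells. Every T-dependent array was under the floor, so the rise was at least 2.37-fold against either T-dependent group (adjusted p = 0.021 for TD day 10 and 0.031 for TD day 4). Set to the floor, the T-dependent arrays have no spread, which lowers these p-values. Gclc also passed the filter only through the TI day 4 arrays, since 100 on a resting array was the only other value above the floor. The direction was therefore fixed, and these p-values are no support for a rise. Both calls were lost on leaving out any germinal centre array. They were also lost with the floor at the 40th or the 60th percentile, the pseudocount, only the arrays compared and the Gapdh covariate. The log2 difference fell to 0.427 against either group, and adjusted p reached 0.187 for TD day 10 and 0.299 for TD day 4. Gpx4, which reduces lipid peroxides in membranes, read 93 and 98 in TI day 4 cells, 159 and 74 in TD day 10 cells and 132 and 98 in TD day 4 cells, against 237 and 295 in resting cells. Its germinal centre mean lay 2.47-fold under resting cells by geometric means with 1 germinal centre array raised to the floor (adjusted p = 0.032), and 2.44-fold by arithmetic means, a call lost without either array of the resting, TD day 4 or TI day 4 group (adjusted p up to 0.164).

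Of 22 genes of the NRF2 pathway and NADPH supply, 18 were on the array and 14 were tested. The 1 gene called between TI day 4 and the T-dependent groups was Nadk, the kinase that makes NADP from NAD, which read 645 and 1437 in TI day 4 cells, 50 and -2 in TD day 10 cells and 96 and -75 in TD day 4 cells, against 288 and 276 in resting cells. It was at least 11.9-fold higher in TI day 4 than in TD day 10 cells (adjusted p = 0.011) and at least 10.9-fold higher than in TD day 4 cells (adjusted p = 0.018). The call against TD day 10 cells was lost without either TD day 10 array, and that against TD day 4 cells without any T-dependent array or TI day 4 replicate 2. Both were also lost with no filter, only the arrays compared and the Gapdh covariate, and the call against TD day 4 cells with the pseudocount and the crossed replicate block. In the germinal centre mean 0 of the 14 were called, with 1 at an unadjusted p under 0.05, against 25.8% of all tested probe sets. Sqstm1, an autophagy receptor that also binds the NRF2 inhibitor Keap1, was 2.90-fold lower in TD day 10 than in resting cells (adjusted p = 0.045), at 108 and 82 in TD day 10 cells against 258 and 289 in resting cells.

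The NADPH oxidase makes superoxide in phagocytes and B cells. Of its 6 genes tested, 3 fell and 0 rose in the germinal centre mean, with a median log2 difference of -0.58, and 3 fell in each single group. Over all tested probe sets 5.5% were called lower in the germinal centre mean. In TI day 4, TD day 10 and TD day 4 cells that share was 3.98%, 4.44% and 3.58%. Cyba, a membrane subunit, read 2304 and 2097 in TI day 4 cells, 2403 and 2657 in TD day 10 cells and 2331 and 2478 in TD day 4 cells, against 5270 and 3999 in resting cells, and was 1.94-fold lower (adjusted p = 0.012). Ncf4, a cytosolic subunit, read 397 and 435, 453 and 660, and 626 and 583 in the germinal centre groups in the same order, against 1430 and 1310 in resting cells, and was 2.65-fold lower (adjusted p = 0.005). Ncf1, another cytosolic subunit, was at least 3.22-fold lower (adjusted p = 0.017), with 402 and 177 on the resting arrays. Besides these, only 93 on a TI day 4 array was above the floor. Ncf1 passed the filter only through the resting arrays, so its p is no support for a fall. It is among the 3 counted in the mean and in each group. The Ncf1 call was lost without any T-dependent array or TI day 4 replicate 1. It was also lost with no filter and with the floor at the 60th percentile (log2 difference -0.899, adjusted p = 0.0938).

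The summed intensity of 10 neutrophil markers was 1925 to 2971 on TI day 4 arrays, 1979 to 2640 on TD day 10 arrays and 1826 to 1969 on TD day 4 arrays, against 6730 to 6779 on resting arrays. Of 8 macrophage markers tested, 3 fell in the germinal centre mean, C1qa (log2 difference -2.89, adjusted p = 0.00081), C1qc (-1.10, adjusted p = 0.0026) and Vcam1 (-2.00, adjusted p = 0.014), and 0 rose. Of all tested probe sets, 5.5% were called lower. C1qc was above the floor only on the 2 resting arrays (177 and 171). It entered the tests through them alone, so its direction was fixed and its p is no support for a fall. C1qa and Vcam1 were above the floor on both resting arrays and on 1 TI day 4 array each, at 130 and 207. They too passed the filter only through the resting arrays, so their p-values are no support for a fall either. The part of neutrophil and macrophage transcripts in the fall of the oxidase genes was not tested.

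All 12 listed genes of oxidative folding in the endoplasmic reticulum, the compartment of Prdx4, were tested. Between TI day 4 and TD day 4 cells 0 of them were called, with 3 at an unadjusted p under 0.05, against 14.4% of all tested probe sets. Between TI day 4 and TD day 10 cells 0 were called, with 4 at an unadjusted p under 0.05, against 17.2% of all. Txndc5, a disulphide isomerase, read 3083 and 3950 in TI day 4 cells, 594 and 289 in TD day 10 cells and 388 and 500 in TD day 4 cells, against 77 and 447 in resting cells. It was 18.3-fold higher in TI day 4 than in resting cells by geometric means with 1 resting array raised to the floor (adjusted p = 0.025), or 13.4-fold by arithmetic means, while its log2 difference of 2.99 from TD day 4 cells had an adjusted p of 0.15. In the germinal centre mean Erp44, a thioredoxin-family retention factor that binds Prdx4, was 5.23-fold higher (adjusted p = 0.00086), at 710 and 878 in TI day 4 cells, 888 and 711 in TD day 10 cells and 749 and 705 in TD day 4 cells, against 132 and 164 in resting cells. Ero1a, the oxidase that drives disulphide formation and releases peroxide, was 2.00-fold lower (adjusted p = 0.0097), at 233 to 300 on the germinal centre arrays, against 520 and 610 in resting cells. Erp29, a chaperone of the same compartment, was 2.36-fold lower in TD day 10 than in resting cells (adjusted p = 0.029), at 524 and 584 in TD day 10 cells against 1279 and 1328 in resting cells.

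**Figure D4:**
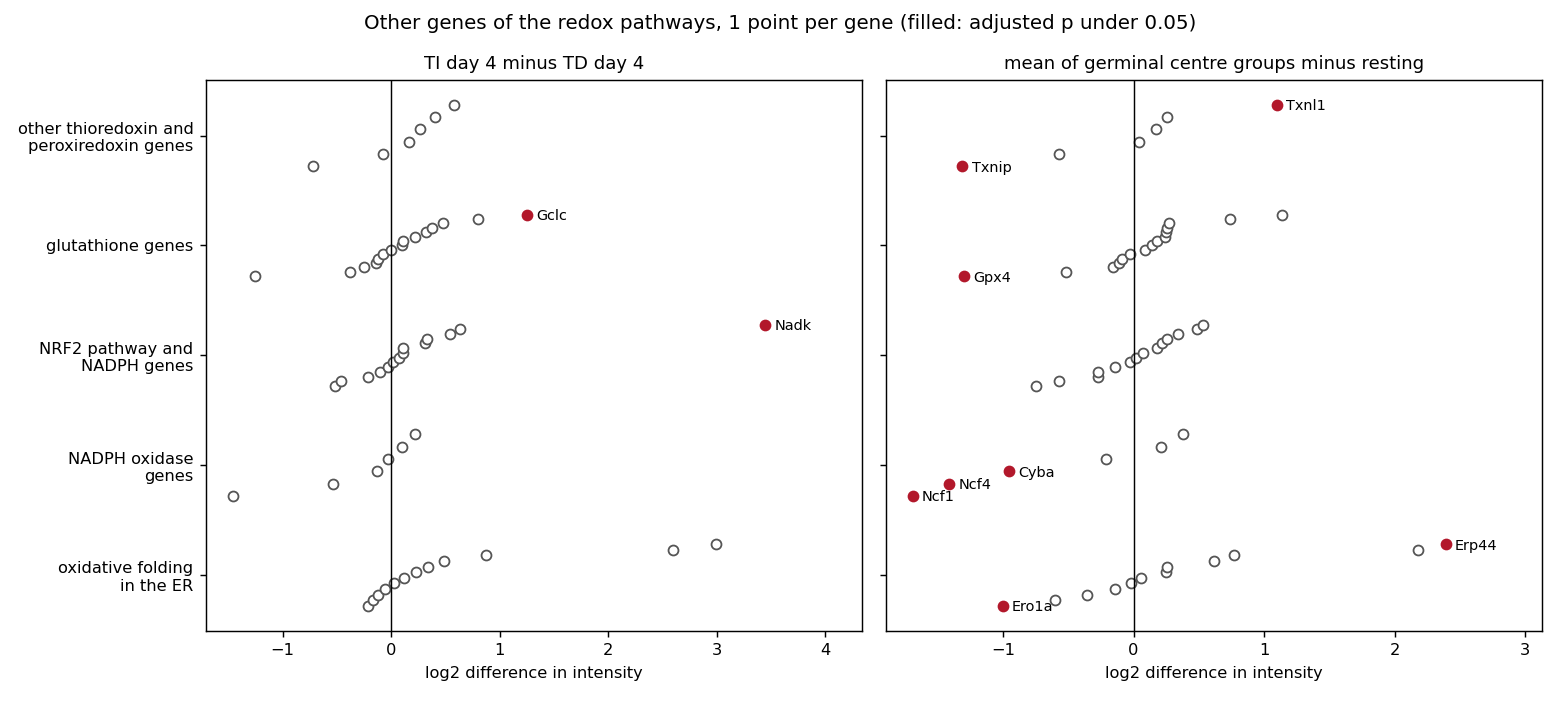
Log2 difference (horizontal axes) of each tested gene of 5 related lists, spread vertically within its list, for TI day 4 minus TD day 4 cells on the left and the germinal centre mean minus resting cells on the right; filled and labelled points are called at an adjusted p under 0.05. Gclc and Nadk are called on the left, and Txnl1, Erp44, Txnip, Gpx4, Ero1a, Cyba, Ncf1 and Ncf4 on the right.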

How the data were processed

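RNAzol-extracted RNA of sorted B cells was labelled with biotin following Affymetrix, per the labels' protocols, and hybridised to 8 arrays. The deposited files hold linear-scale intensities. How the authors computed and scaled them is not given in the sources used here, and 30.1% of the values are 0 or below. They were used as deposited, with values under the floor of 81 (the 50th percentile of all values) set to it before log2 was taken from the deposited intensities. Folds are ratios of geometric means. Where an array of the dimmer side lies at the floor, the ratio is printed as a lower bound (at least), except that where the ratio of arithmetic means was smaller, both are printed with no bound. Marker sums take values below 0 as 0. Control probe sets (66) were set aside, and 7253 probe sets above the floor on at least 2 arrays were tested. The number of arrays limits the precision.

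Tests were made with limma 3.58.1 under R 4.3.3, in 1 model of the 4 groups on all 8 arrays (4 residual degrees of freedom, 2.2 from the prior), for 7 comparisons. P-values are two-sided and adjusted by Benjamini-Hochberg over all tested probe sets of a comparison, at 0.05. The fit was checked on simulated arrays with known changes. Symbols come from the platform's probe annotation: 10833 probe sets name 1 gene, 396 several and 1193 none, and 10817 of the named ones were found in the RefSeq table. Promoters and positions are from RefSeq, GRCm38.p6.

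The members and gene lists were chosen with earlier results of these data known. Every member probe set is named or counted, a gene with several is represented by the brightest, and of the other lists the called genes are named, at most the 4 with the smallest p. By that rule a probe set annotated to several genes is only counted; the values of the Prdx1/Gm21399 probe sets were added after they were seen. Likeness is Pearson's r on log2 values over the 8 arrays.

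Between groups, same-numbered arrays deviated from their group means with correlations of -0.217 to 0.121, so the numbers were not taken to pair the arrays. Alternatives were a pseudocount of 50 or a floor at the 40th or the 60th percentile, a common median, quantile normalization, array weights, no filter, a stricter filter (4 arrays), a fit of only the arrays compared, a replicate block, a robust trended prior and leaving out each array. A Gapdh covariate and a crossed replicate block were added after seeing the data.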

Additional observations from a re-analysis of the deposited data

Results flagged for a closer look

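For 2 members the difference from resting cells was called different between TI day 4 cells and at least 1 T-dependent group. The calls are from the direct comparison of the germinal centre groups in limma, in which the shared resting arrays cancel. Prdx4 was higher in TI day 4 cells than in TD day 4 cells by 1.78 on the log2 scale, and higher than in TD day 10 cells by 1.85. Gsta2 was higher in TI day 4 cells than in TD day 10 cells by 5.07, with both TD day 10 arrays at the floor. Its difference from TD day 4 cells did not pass the test (adjusted p = 0.065). Both TI day 4 arrays were above both arrays of the other group in each called case. Over all probe sets, the TI day 4 arrays did not overlap those of TD day 4 in 49.4% and those of TD day 10 in 52.8%. Each of these calls was lost on leaving out any germinal centre array and with the Gapdh covariate.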

How the results depend on the processing

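No member difference given above as called changed direction under any alternative tried. The counts of member probe sets called moved as follows. Between TI day 4 and TD day 4 cells the count of 1 became 0 with the floor at the 40th percentile, the pseudocount, no filter, the replicate block, only the arrays compared, the Gapdh covariate and the crossed replicate block, and 2 with the floor at the 60th percentile and with array weights. Between TI day 4 and TD day 10 cells the count of 2 became 1 with the floor at the 40th percentile and with the pseudocount, and 0 with no filter, only the arrays compared and the Gapdh covariate. Against resting cells, the TI day 4 count of 5 became 2 with no filter and 0 with only the arrays compared, the TD day 10 count of 4 became 1 with only the arrays compared and 0 with the crossed replicate block, and the TD day 4 count of 3 became 1 with only the arrays compared. That setting has fewer arrays behind the estimate of the spread and called 0 of all probe sets between any germinal centre groups, and 100, 195 and 118 for TI day 4, TD day 10 and TD day 4 against resting cells. Leaving out each array in turn gave 0 to 1 calls for TI day 4 against TD day 4, 0 to 2 for TI day 4 against TD day 10, 0 to 0 for TD day 10 against TD day 4, 4 to 5 for the germinal centre mean against resting cells, and 2 to 4, 2 to 4 and 1 to 4 for TI day 4, TD day 10 and TD day 4 against resting cells. The replicate block moved no other count by more than 1.5 times, and the crossed block was run where same-numbered arrays correlated under -0.1. Over all probe sets, array weights called 261 between TI day 4 and TD day 4 and no filter 42. A common median changed the TD day 10 split against resting cells to 366 higher and 399 lower, against 468 and 322 in the model as reported, and the TI day 4 split against TD day 10 to 118 and 76, against 87 and 87. The causes of these changes were not tested unless stated.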
